A study of Mus musculus with 24 samples.

Results

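Type I interferon response genes were followed as a named list of 42 genes whose transcripts are known to be induced by interferon, ordered here by what their products do. A gene counted as measured where a probe set of the array carried its symbol and no other, and where several did, the probe set with the largest standard deviation (SD) was used. By this rule 37 of the 42 were measured, among 17097 genes in all, through 55 probe sets. Isg15, Oas1a, Bst2, Tap1 and Ifi44 have no such probe set and are not analysed here.

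The study profiled 24 Affymetrix arrays of mouse acute lymphoblastic leukaemia (ALL), 8 of a cell line and 16 of tumours. BKO408 is a preB-ALL line that arose in mice homozygous for a knock-out of Blnk, which encodes an adaptor of pre-B-cell receptor signalling. It was grown with 5 ng/ml interleukin 7 and 10% fetal bovine serum, either as it is (4 arrays, control cells) or after transduction with a retrovirus for LAP, the activating isoform of the Cebpb product (C/EBPβ, a myeloid transcription factor; 4 arrays, LAP cells). The tumours were Blnk preB-ALL of Blnk KO mice (5, Blnk tumours), LAP/Blnk preB-ALL of Blnk KO mice that also carried the Cebpb LAP transgene (3, LAP/Blnk tumours), and preB-ALL (4, LAP preB-ALL) and B-ALL (4, LAP B-ALL) of Cebpb LAP transgenic mice with no Blnk knock-out in their label. All control and LAP cells therefore lack Blnk, as do the Blnk and LAP/Blnk tumours. BKO408 is 1 line, the labels name no empty vector for the control cells, and no source used here gives the promoter of the transgene, the strain, the age of the mice or any sorting of the tumours. Nothing says that arrays of a group came from separate cultures or animals, so the spread that p-values measure is that of these arrays and can be technical.

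Every value below is a log2 ratio of an array to the median of its set, the 8 cell-line arrays or the 16 tumours. The base of the logarithm is not stated and was taken as 2. The ratios hold no expression level and no detection call, cells and tumours have separate baselines, and a labelled cell type could be checked only relative to the other arrays of its set. In bulk samples, fewer cells of a type and less RNA per cell cannot be told apart.

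Type I interferons bind the receptor made of Ifnar1 and Ifnar2, whose kinases Jak1 and Tyk2 activate a complex that contains STAT2 and IRF9. The complex binds interferon-stimulated response elements in the promoters of target genes, which encode sensors of foreign nucleic acid, inhibitors of viral replication and regulators that feed back on the pathway. Many of these genes also have a basal level in blood cells without infection, and the level differs between cell types.

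The response element is visible in the promoters of many of the listed genes. Windows of 300 bases, 250 before the annotated start of transcription and 50 after it, were taken from RefSeq (mouse build GRCm38.p6) and searched on both strands for GAAANNGAAA, the core of the element. A window existed for 32 of the 42 listed genes, and 13 of these held the motif (40.6%), against 3.59% of the 13605 tested genes with a window and 3.99% of all 27025 genes with one. Among measured members 10 of 27 held it (37.0%). The sequences of 6 members whose values are given array by array and whose window held the element are shown, 5′ to 3′ in the direction of the gene, with the response element in capitals (it reads TTTCNNTTTC where it lies on the opposite strand). They are Rsad2 (chr12:26456403-26456702, minus strand), Cxcl10 (chr5:92348840-92349139, minus), Ifit1 (chr19:34640639-34640938, plus), Ifit3 (chr19:34583279-34583578, plus), Trim30a (chr7:104465144-104465443, minus, the first of its 2 windows) and Stat2 (chr10:128270248-128270547, plus).
Rsad2: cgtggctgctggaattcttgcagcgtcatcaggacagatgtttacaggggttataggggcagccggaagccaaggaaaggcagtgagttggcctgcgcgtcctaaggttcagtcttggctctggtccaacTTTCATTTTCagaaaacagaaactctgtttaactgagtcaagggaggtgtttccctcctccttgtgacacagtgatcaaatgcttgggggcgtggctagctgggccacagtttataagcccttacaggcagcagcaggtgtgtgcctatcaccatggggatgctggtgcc
Cxcl10: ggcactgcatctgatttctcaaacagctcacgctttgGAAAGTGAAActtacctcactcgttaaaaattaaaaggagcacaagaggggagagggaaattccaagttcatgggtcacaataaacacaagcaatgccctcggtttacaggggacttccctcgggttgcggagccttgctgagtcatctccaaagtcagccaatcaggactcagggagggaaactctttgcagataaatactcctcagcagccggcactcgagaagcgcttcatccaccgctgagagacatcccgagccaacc
Ifit1: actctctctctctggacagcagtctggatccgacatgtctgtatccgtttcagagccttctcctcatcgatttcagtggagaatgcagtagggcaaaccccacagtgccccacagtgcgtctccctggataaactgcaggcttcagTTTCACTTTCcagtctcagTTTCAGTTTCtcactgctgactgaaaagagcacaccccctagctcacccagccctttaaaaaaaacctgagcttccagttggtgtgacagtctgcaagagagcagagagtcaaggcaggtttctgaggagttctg
Ifit3: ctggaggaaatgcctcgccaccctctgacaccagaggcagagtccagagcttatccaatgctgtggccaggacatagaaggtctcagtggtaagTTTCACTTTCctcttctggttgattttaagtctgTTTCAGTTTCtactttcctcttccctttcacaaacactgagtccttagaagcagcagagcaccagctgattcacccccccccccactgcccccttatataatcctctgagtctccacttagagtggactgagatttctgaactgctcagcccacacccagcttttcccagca
Trim30a: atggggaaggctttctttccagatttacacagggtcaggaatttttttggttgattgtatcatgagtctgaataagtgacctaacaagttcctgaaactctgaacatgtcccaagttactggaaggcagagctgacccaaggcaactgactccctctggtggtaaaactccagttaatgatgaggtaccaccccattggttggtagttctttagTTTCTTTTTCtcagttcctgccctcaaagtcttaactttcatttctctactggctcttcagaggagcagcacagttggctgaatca
Stat2: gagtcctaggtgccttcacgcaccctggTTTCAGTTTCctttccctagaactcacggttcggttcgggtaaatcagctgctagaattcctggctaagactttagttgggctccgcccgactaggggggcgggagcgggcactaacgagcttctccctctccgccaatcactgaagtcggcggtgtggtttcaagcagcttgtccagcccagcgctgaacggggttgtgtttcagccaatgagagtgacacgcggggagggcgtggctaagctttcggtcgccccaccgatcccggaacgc
Ifit1 and Ifit3 each held 2 copies, beginning 104 and 85 bases before the start in Ifit1 and 156 and 122 bases before it in Ifit3. The copy in Rsad2 began 120 bases before the start and that in Cxcl10 213 bases before it. A match is a description of the letters and no evidence of binding.

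Whole arrays were comparable, with medians over all probe sets between -0.0286 and 0.0636, and no arrays were identical. Libraries LAP preB-ALL 4 and LAP B-ALL 4 stood apart from most others of their label in some marker lists but not in all, and nothing states a wrong label. The 10 precursor B-cell markers had a median of 0.71 in LAP B-ALL 4 and of -3.85 in LAP preB-ALL 4, whereas LAP B-ALL 1 to 3 lay between -3.38 and -2.89 and LAP preB-ALL 1 and 3 at -0.22 and -0.25. LAP preB-ALL 2 was at -2.13. The 7 erythroid markers had medians of 1.23 in LAP B-ALL 4 and of 4.91 in LAP preB-ALL 4. They were at 4.85 to 5.42 in LAP B-ALL 1 to 3 and at -0.68 to -0.24 in LAP preB-ALL 1 to 3, so LAP B-ALL 4 lay between. The 8 mature B-cell markers did not go against the labels of LAP preB-ALL 4 and LAP B-ALL 4, but LAP preB-ALL 2 lay above every LAP B-ALL in them. LAP preB-ALL 2 was kept where the libraries numbered 4 were left out. Their medians were 0.87 in LAP B-ALL 4 (0.07 to 0.68 in LAP B-ALL 1 to 3) and -0.07 in LAP preB-ALL 4 (-0.15, 2.31 and -0.57 in LAP preB-ALL 1 to 3). Results for LAP preB-ALL or LAP B-ALL are given below with these libraries and, where a call changes, without both. Counts of members called after leaving out arrays come without the share of all genes called then. They show how far a call depends on an array and are no result about the members. Comparisons between tumour groups share samples, and their values are set side by side and not counted as separate evidence.

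Interferon response genes were among the more variable genes of the tumours. Their median SD over the 16 tumours was 0.771, against 0.278 for all genes, and 36 of 37 exceeded that median. Over the 8 cell-line arrays the median SD was 0.092 for members and 0.0758 for all genes, and 25 of 37 lay above the latter. Rsad2, which encodes the antiviral enzyme viperin, varied most in tumours (SD 2.26, from -1.86 to 4.55). The map of all members shows this contrast of scale.

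**Figure D1:**
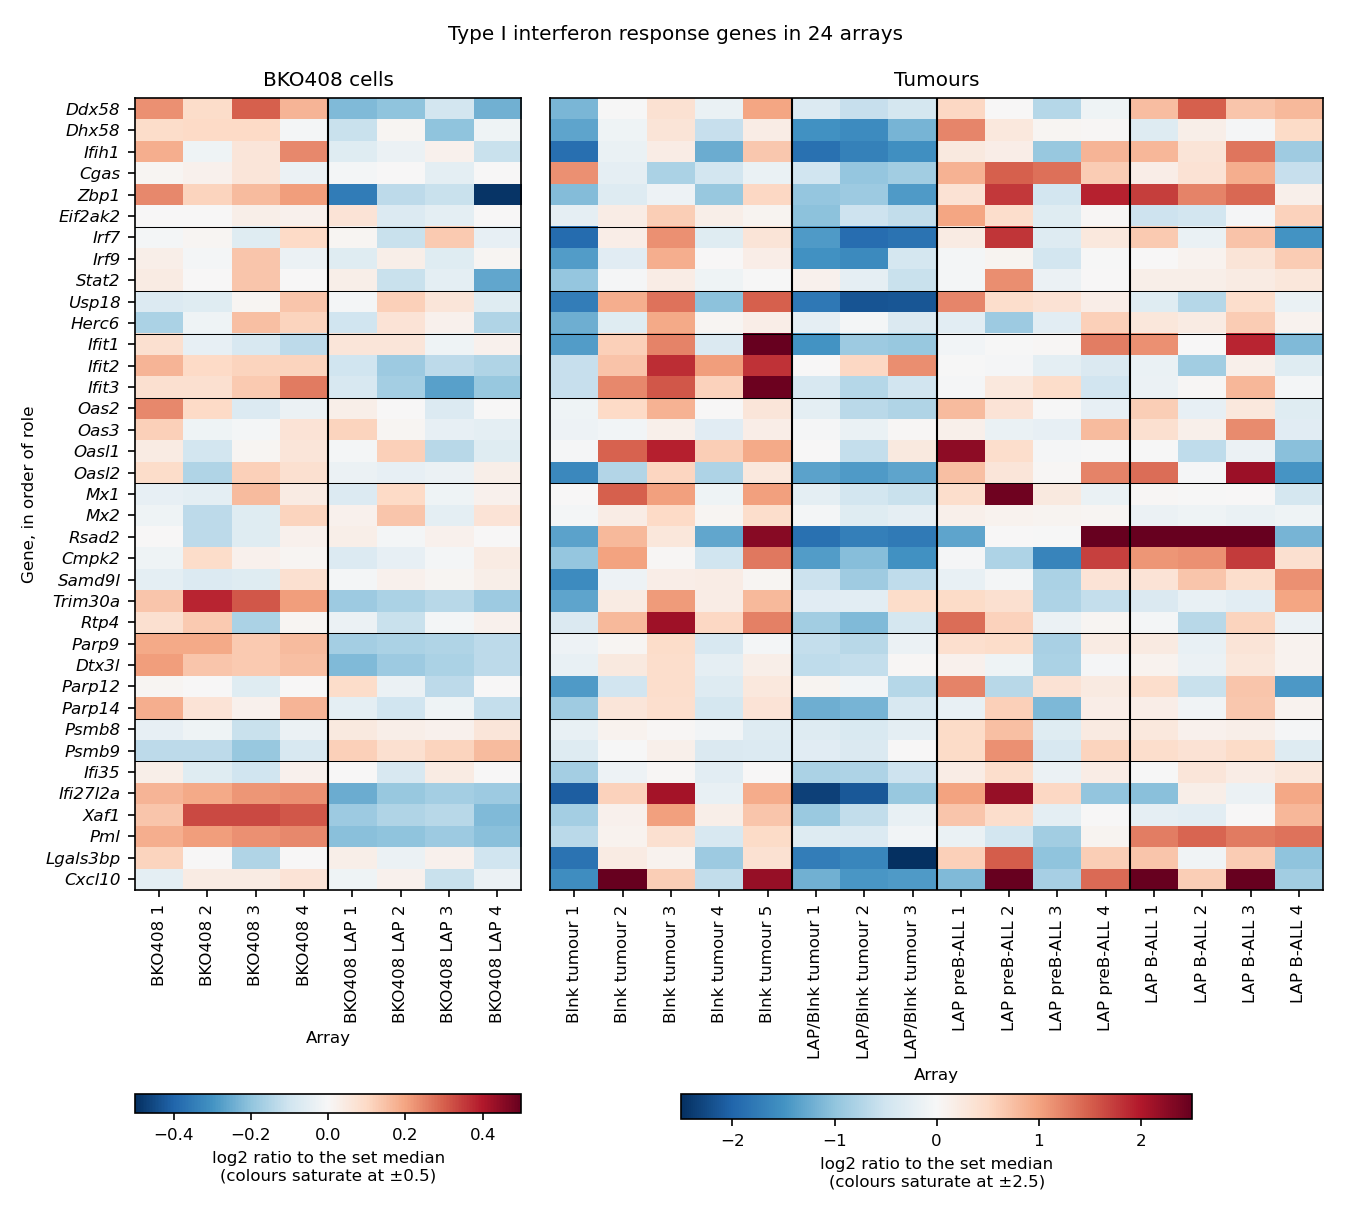
Log2 ratio of the 37 measured members (rows, by role, roles parted by lines) in the 8 cell-line arrays and 16 tumours (columns, groups parted by vertical lines), each set on its own colour scale and baseline. In the cells, rows such as Pml, Parp9 and Ifi27l2a divide control from LAP cells, and in the tumours the 3 LAP/Blnk columns and Blnk tumour 1 are mostly below 0.

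LAP in BKO408 cells went with lower transcripts of a subset of the interferon response genes and higher Psmb9. Of 37 members 11 fell and 1 rose (limma, Benjamini-Hochberg adjusted p under 0.05), which is 32.4% of members against a background of 22.3% of all genes called in either direction. In the lower direction the shares were 29.7% of members and 11.8% of all genes, and 10.5% of all genes rose. The changes were small, from -0.45 to 0.25, and the median over members was -0.05 against -0.01 over all genes, with 29 of 37 negative (57.1% of all genes). The groups did not overlap for 11 members that were lower (14.4% of all genes) and 2 that were higher (12.3%).

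Among the sensors, 2 of 6 fell. Zbp1, a nucleic-acid sensor that triggers inflammatory cell death, was at 0.24, 0.11, 0.16 and 0.21 in control cells and at -0.35, -0.13, -0.11 and -0.49 in LAP cells. Every control array lay above every LAP array, the LAP arrays spread more widely, and the gene fell by 0.45 (SE 0.08, limma adjusted p = 0.00304). Ddx58, which encodes the RNA sensor RIG-I, fell by 0.38 (SE 0.05), and Dhx58 (-0.15, adjusted p = 0.0537) and Ifih1 (-0.16, adjusted p = 0.0735), the other RNA sensors of its family, did not pass. Cgas, the DNA sensor, and Eif2ak2, a kinase activated by double-stranded RNA, were at -0.03 each.

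None of the 3 transcription factors of the response was called. Stat2 was at 0.04, 0.00, 0.14 and 0.00 in control cells and at 0.03, -0.11, -0.05 and -0.26 in LAP cells, which overlap (-0.14, SE 0.06, limma adjusted p = 0.139). Irf7, the factor that amplifies interferon production, differed by -0.02 and Irf9 by -0.05. Usp18, which removes ISG15 from proteins and restrains the receptor, differed by 0.02 (SE 0.06) and Herc6, an ISG15 ligase, by -0.06 (SE 0.07). Herc6 ranged from -0.16 to 0.15 in control cells and from -0.15 to 0.07 in LAP cells, so these groups overlapped as well.

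The IFIT family, whose proteins bind viral RNA, was split. Ifit3 was at 0.08, 0.08, 0.13 and 0.26 in control cells and at -0.08, -0.17, -0.27 and -0.19 in LAP cells. Ifit2 was at 0.17, 0.10, 0.11 and 0.11 in control cells and at -0.10, -0.18, -0.13 and -0.15 in LAP cells. Both genes were higher in every control array, and they fell by 0.32 (SE 0.05, limma adjusted p = 0.00167) and 0.26 (SE 0.03). Ifit1 went the other way within error, at 0.07 (SE 0.04, adjusted p = 0.304). In the oligoadenylate synthetase (OAS) family, some of whose enzymes activate RNA degradation, 0 of 4 passed and the differences lay between -0.07 and -0.03. Oas2 was at 0.24, 0.10, -0.07 and -0.03 in control cells and at 0.03, 0.00, -0.07 and 0.00 in LAP cells, where the latter lay within the range of the former.

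Of 7 other antiviral effectors only Trim30a, a TRIM-family regulator of inflammatory signalling, passed. It was at 0.14, 0.38, 0.31 and 0.21 in control cells and at -0.18, -0.16, -0.14 and -0.18 in LAP cells, with no overlap (-0.43, SE 0.05, limma adjusted p = 0.00024). Mx1, Mx2, Rsad2, Cmpk2, Samd9l and Rtp4 lay between -0.05 and 0.07. In the group of Parp9, an ADP-ribosyltransferase that acts with the ubiquitin ligase Dtx3l, 3 of 4 fell. Parp9 was at 0.19, 0.19, 0.13 and 0.16 in control cells and at -0.17, -0.16, -0.15 and -0.13 in LAP cells. Dtx3l was at 0.21, 0.14, 0.13 and 0.15 and then at -0.22, -0.18, -0.16 and -0.13. In both the distance between the groups exceeded the range within either, and the falls were 0.32 (limma adjusted p = 3.04e-05) and 0.33 (adjusted p = 7.34e-05), each with SE 0.03. Parp14 fell by 0.18 (SE 0.04), and Parp12 was at -0.01.

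Of the 2 immunoproteasome subunits in the list, Psmb9 was the member that rose. Psmb9 was at -0.13, -0.13, -0.19 and -0.08 in control cells and at 0.12, 0.08, 0.11 and 0.16 in LAP cells. It was higher in every LAP array and rose by 0.25 (SE 0.03, limma adjusted p = 0.000331). Psmb8, another inducible subunit, was higher in every LAP array too, but by only 0.09 (adjusted p = 0.0521).

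In the last group 3 of 6 fell. Pml, which organises nuclear bodies, was at 0.18, 0.21, 0.23 and 0.24 in control cells and at -0.21, -0.20, -0.18 and -0.21 in LAP cells. Ifi27l2a, a small interferon-induced membrane protein gene, was at 0.17, 0.19, 0.22 and 0.23 and then at -0.25, -0.19, -0.17 and -0.18. The arrays of each group were nearly superimposed, and the falls were 0.41 (SE 0.03, limma adjusted p = 4.64e-06) and 0.40 (SE 0.03, adjusted p = 1.46e-05). Xaf1, a pro-apoptotic inhibitor of XIAP, was at 0.14, 0.33, 0.33 and 0.31 in control cells and at -0.18, -0.15, -0.14 and -0.22 in LAP cells. The groups did not overlap and the fall was 0.45 (SE 0.05), but the other probe set of Xaf1 gave -0.14 (adjusted p = 0.122). Lgals3bp was at -0.01, Ifi35 at 0.01 and the chemokine gene Cxcl10 at -0.06. With 1 spread estimated over all 24 arrays, tumours included, limma called 0 of 37 members and 21 of all genes in the cells.

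**Figure D2:**
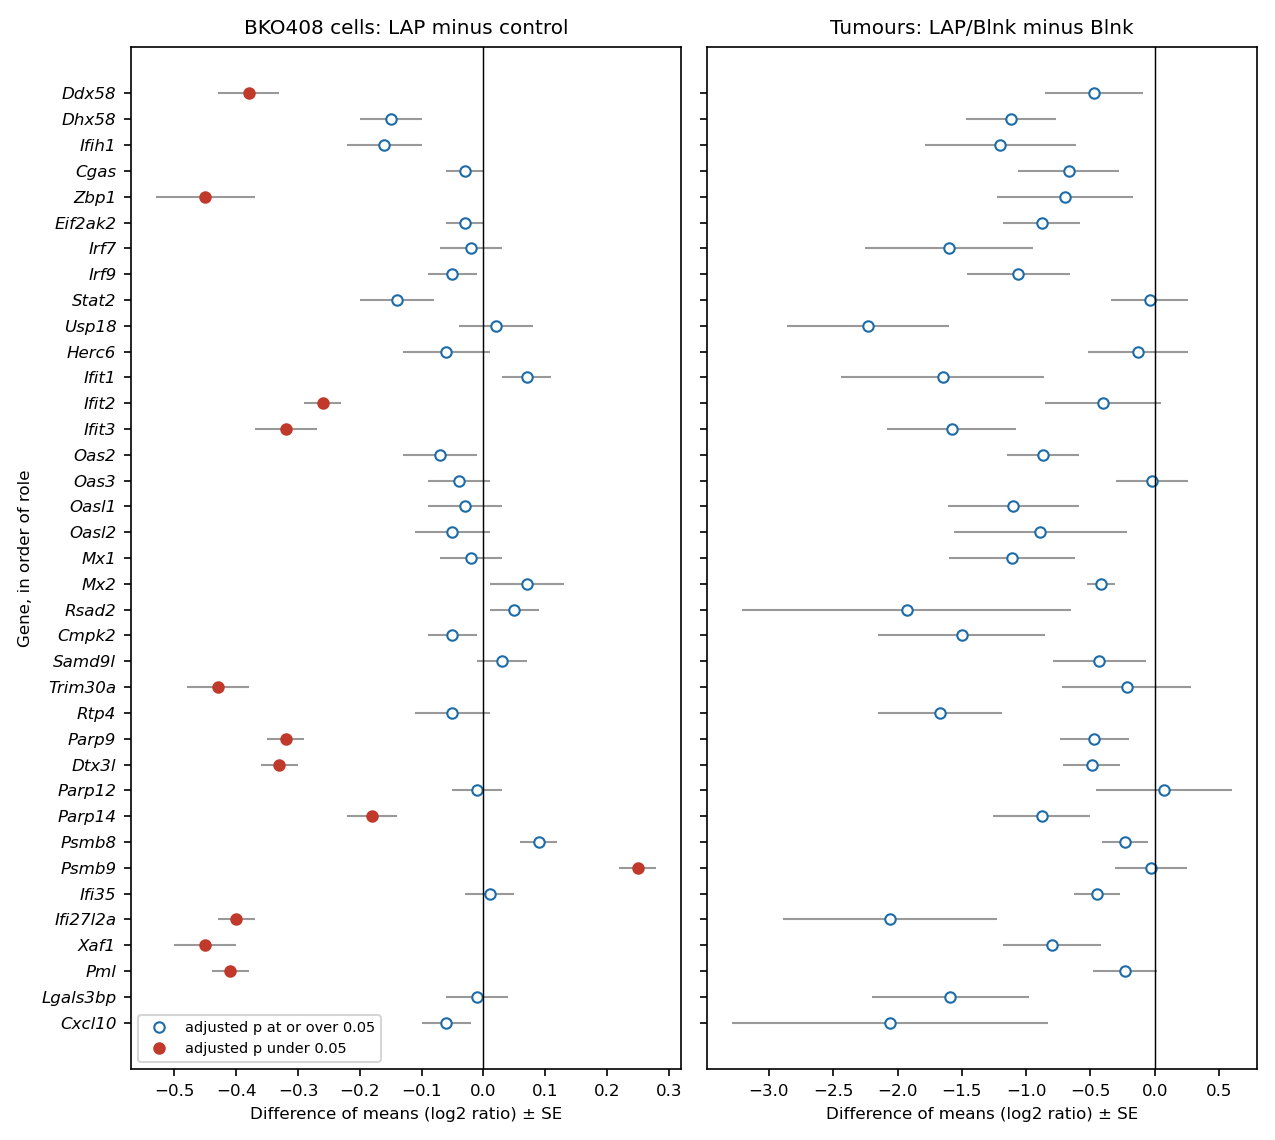
Difference of group means (log2 ratio, points) with its standard error (bars) for each member, LAP minus control cells on the left and LAP/Blnk minus Blnk tumours on the right, on separate horizontal scales; filled points passed an adjusted p of 0.05 (limma). In cells 11 members fell and Psmb9 rose, and in tumours 36 of 37 points lie below 0 with 0 called.

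The wider pathway in LAP cells was examined through lists of 2 to 10 measured genes each. Beside the counts below, limma called 22.3% of all genes in these cells, 11.8% lower and 10.5% higher. The counts were not tested against these shares. Limma called 0 of 10 genes encoding type I interferons, of which 2 were lower at an unadjusted p under 0.05 (18.6% of all genes), and Ifnb1 was at 0.01 (SE 0.05). Of 8 receptor and kinase genes 4 fell and 0 rose. Ifnar1, a chain of the type I receptor, was at 0.16, 0.06, 0.12 and 0.13 in control cells and at -0.06, -0.14, -0.07 and -0.12 in LAP cells, without overlap (-0.22, SE 0.03, limma adjusted p = 0.00103). The interferon gamma receptor gene Ifngr1 fell by 0.44, Il10rb, which serves interleukin 10 and type III interferon, by 0.43 and Jak2 by 0.16. Ifnar2 was at -0.08 and Jak1 at 0.07. Ifnlr1, the other chain of the type III receptor, fell by 0.51, 1 of 2 in its list.

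Of 7 other transcription factors 3 fell, where 11.8% of all genes fell in these cells and 10.5% rose. These were Irf1, by 0.44 (SE 0.04, limma adjusted p = 3.85e-05), Irf2, by 0.38, and Irf5, by 0.17. Of 10 adaptors and sensors 3 fell (Mavs, the adaptor of RIG-I, by 0.25, Sting1, the adaptor of cGAS, by 0.20, and Trim25 by 0.10) and Tbk1 rose by 0.10. Of 10 negative regulators 4 rose and 0 fell. They were the phosphatase genes Ptpn2 (0.28) and Ptpn6 (0.17), Socs3 (0.27), a feedback inhibitor of JAK kinases, and the DNase gene Trex1 (0.18). Of 8 class I MHC genes 4 rose, among them the class I transactivator Nlrc5 by 0.68 (SE 0.04), H2-K1 by 0.47 and H2-D1 by 0.34, and 2 fell, Psmb10 by 0.21 and Psme1 by 0.19. In the same cells the medians of the monocyte and T-cell marker lists lay within 0.06 of 0 in every array. Values are centred on the cell-line arrays, and the members' medians too lay only between -0.05 and 0.08, so such medians cannot show unchanged markers. Of 19 monocyte and macrophage genes 3 rose, among them Lyz2 (1.53) and Ccr2 (2.25), where 10.5% of all genes rose. Of 10 precursor B-cell markers 4 fell and 1 rose, and the largest falls were in Dntt by 1.91, Rag1 by 1.32 and Rag2 by 1.19. The part of such a change of the cells in the members' values was not tested.

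LAP/Blnk tumours had the lowest interferon response values of the tumour groups as a set, but no single member separated them from Blnk tumours by the test. The 3 LAP/Blnk tumours had medians over members of -0.64, -0.72 and -0.55. Blnk tumours 1 to 5 had medians of -0.96, 0.16, 0.45, -0.27 and 0.38. The groups overlapped through Blnk tumour 1, in which 35 of 37 members were below 0. LAP/Blnk tumours had 33, 36 and 31 members below 0 and the other Blnk tumours between 2 and 25.

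By gene, 36 of 37 members had a negative LAP/Blnk minus Blnk difference (55.5% of all genes), with a median of -0.87 against -0.02 over all genes. Limma called 0 of 37, where the background was 0.0175% of all genes in either direction and 0% in the lower one, and the smallest adjusted p was 0.366. At an unadjusted p under 0.05, 16 members were lower (43.2%), against 2.91% of all genes. Members tended to move together in a tumour, with 35 below 0 in Blnk tumour 1 and 2 in Blnk tumour 3. These counts therefore do not treat members as separate evidence, and the list was chosen with earlier results of these data known. Groups did not overlap for 8 members, all lower (21.6%), against 2.69% of all genes in that direction and 2.67% in the other. They were Usp18, Rtp4, Rsad2, Cmpk2, Mx1, Mx2, Oas2 and Eif2ak2. Without Blnk tumour 1 the number was 23, against 4.12% of all genes. That tumour had the lowest median over these same members, and leaving out an array can only keep or raise such a count. The 23 is therefore no support for a difference between the groups. Leaving out any other single tumour gave 8 to 15 members, where the highest count came without LAP/Blnk tumour 3.

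Usp18 had the largest difference. It was at -1.79, -2.15 and -2.13 in the LAP/Blnk tumours and at -1.72, 0.91, 1.36, -1.02 and 1.49 in Blnk tumours. The LAP/Blnk values were tight and just below the lowest Blnk tumour, and the mean difference was -2.23 (SE 0.63), a 4.69-fold lower ratio that did not pass (limma adjusted p = 0.41). Ifi27l2a was at -2.33, -2.11 and -0.95 in the LAP/Blnk tumours and at -2.06, 0.57, 2.08, -0.19 and 0.93 in Blnk tumours. Here Blnk tumour 1 lay inside the LAP/Blnk range and the others above it (-2.06, SE 0.83, adjusted p = 0.783). Cxcl10, a chemokine that draws activated T cells, was at -1.21, -1.45 and -1.42 in the LAP/Blnk tumours and at -1.55, 2.89, 0.61, -0.61 and 2.18 in Blnk tumours. Its difference, -2.06, came with an SE of 1.23, and Blnk tumours ranged from -1.55 to 2.89.

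Irf7 and Dhx58, a transcription factor and an RNA sensor of the list, were low in the same tumours. Irf7 was at -1.41, -1.90 and -1.85 in the LAP/Blnk tumours and at -1.93, 0.16, 1.14, -0.30 and 0.33 in Blnk tumours. Dhx58 was at -1.52, -1.58 and -1.17 in the LAP/Blnk tumours and at -1.32, -0.11, 0.33, -0.58 and 0.19 in Blnk tumours. In both genes Blnk tumour 1 had a value like those of the LAP/Blnk tumours, and the differences were -1.60 (SE 0.65) and -1.12 (SE 0.35). Irf9 differed by -1.06 and Stat2 by -0.04. Stat2 was at 0.10, -0.23 and -0.56 in the LAP/Blnk tumours and at -0.96, -0.03, 0.18, -0.10 and -0.01 in Blnk tumours, so that its lowest value belonged to a Blnk tumour. Among sensors the differences ranged from -1.20 (Ifih1) to -0.47 (Ddx58).

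The IFIT genes had the lowest median of the role groups, -1.58. Ifit3 was at -0.41, -0.72 and -0.48 in the LAP/Blnk tumours and at -0.57, 1.21, 1.55, 0.57 and 2.46 in Blnk tumours. Ifit1 was at -1.49, -0.91 and -0.94 in the LAP/Blnk tumours and at -1.40, 0.60, 1.24, -0.37 and 2.60 in Blnk tumours. In both genes 4 of the 5 Blnk tumours exceeded every LAP/Blnk tumour, with differences of -1.58 (SE 0.50) and -1.65 (SE 0.79). Ifit2, at 0.01, 0.52 and 1.16 in LAP/Blnk tumours, did not follow them (-0.40, SE 0.45). Oas2 was at -0.25, -0.67 and -0.76 in the LAP/Blnk tumours and at -0.11, 0.50, 0.86, 0.01 and 0.31 in Blnk tumours, without overlap (-0.87, SE 0.28), whereas Oas3 differed by -0.02. Oasl2 was at -1.33, -1.42 and -1.31 in the LAP/Blnk tumours and at -1.62, -0.73, 0.54, -0.78 and 0.27 in Blnk tumours, and again only Blnk tumour 1 was as low.

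Role groups differed in size. The median difference was -0.79 for 6 sensors, -1.06 for 3 transcription factors, -0.88 for 4 OAS genes and -1.11 for 7 other effectors. It was -0.48 for the 4 genes of the Parp9 group and -0.13 for the 2 immunoproteasome subunits. Parp12, at 0.07, -0.07 and -0.72 in LAP/Blnk tumours and at -1.42, -0.48, 0.43, -0.33 and 0.27 in Blnk tumours, was the single member with a positive difference (0.07, SE 0.53). Rtp4, a negative regulator of interferon signalling, was at -0.86, -1.10 and -0.43 in the LAP/Blnk tumours and at -0.36, 0.81, 2.11, 0.52 and 1.25 in Blnk tumours. Every LAP/Blnk tumour lay below every Blnk tumour (-1.67, SE 0.48), as in Mx1 (-1.11, SE 0.49) and Mx2 (-0.42, SE 0.11), which encode antiviral GTPases. Mx2 had the smallest adjusted p of the comparison although its tumours lay only between -0.30 and 0.49.

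Most marker lists of other blood cells also had lower medians in LAP/Blnk than in Blnk tumours, but single tumours did not always follow the members. LAP/Blnk tumours had medians of -0.55, -0.67 and -0.94 over 19 monocyte and macrophage markers, and Blnk tumours of -0.45, 0.20, -0.08, -0.54 and 0.86. Over 12 T-cell markers the medians were -0.14, -0.37 and -0.47 for LAP/Blnk tumours, and for Blnk tumours they were -0.43, 0.52, -0.15, -0.38 and 1.19. Blnk tumours 1 and 4, the lowest of their group in the members, were also the lowest in both marker lists. Blnk tumour 3, the highest of its group in the members (0.45), was below 0 in both lists (-0.08 and -0.15). LAP preB-ALL 1 had a median of 0.37 in the members and of -0.71 in the monocyte and macrophage markers. Negative LAP/Blnk minus Blnk differences were found for 18 of 19 monocyte and 11 of 12 T-cell markers, with medians of -0.69 and -0.46, and for 14 of 14 granulocyte (-0.57) and 7 of 8 mature B-cell markers (-0.69). Precursor B-cell markers had positive differences in 10 of 10 (0.37). Limma called 0 of these markers, and at an unadjusted p under 0.05 the count was also 0. Differences were negative too for 8 of 10 natural killer (NK), 6 of 8 classical dendritic and 6 of 7 erythroid markers. Their medians were -0.27, -0.16 and -0.28, with 0 called. At an unadjusted p under 0.05 (limma), 1 NK-cell and 1 plasmacytoid dendritic marker were higher, where 2.88% of all genes were. For 10 markers of plasmacytoid dendritic cells, which produce much of the type I interferon, the medians ran from -0.18 to 0.03 in LAP/Blnk and from -0.20 to 0.44 in Blnk tumours. The part of these cells in the members' values was not tested, and the ratios do not show whether a marker was expressed at all.

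**Figure D3:**
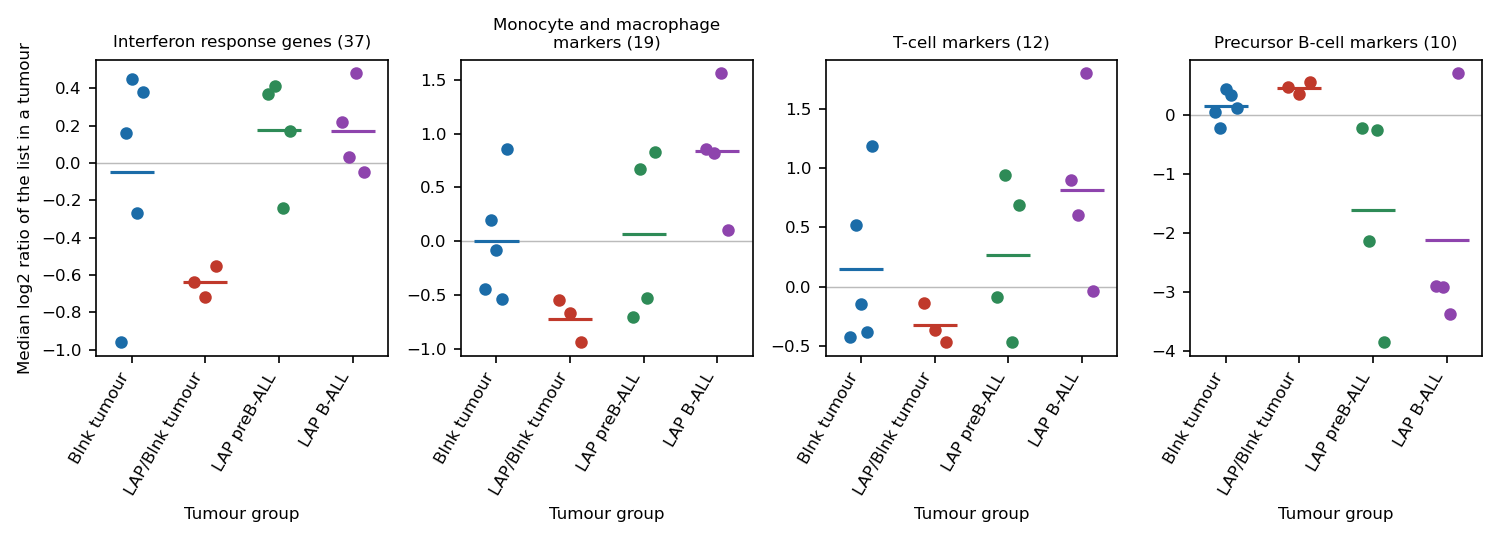
Median log2 ratio (vertical axes, separate scales) of the 37 members, of 19 monocyte and macrophage, 12 T-cell and 10 precursor B-cell markers in each tumour (points), by tumour group, with the mean of the group's points as a line. LAP/Blnk tumours lie at -0.72 to -0.55 in the members, where Blnk tumour 1 is lower at -0.96, and LAP preB-ALL 4 and LAP B-ALL 4 stand out among the precursor B-cell markers at -3.85 and 0.71.

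Against LAP preB-ALL, which share the transgene, LAP/Blnk tumours were lower in Dhx58, Cgas and Ifi35. Limma called 3 of 37 members, all lower, where it called 2.37% of all genes, 0.784% lower and 1.59% higher. The median over members was -0.80, against -0.03 over all genes, and 34 of 37 were negative. Groups did not overlap for 17 lower members (8.18% of all genes) and for Ifit2, which was higher (0.73, SE 0.47, 9.08% of all genes). Unadjusted p was under 0.05 and lower for 18 members (48.6%), against 8.84% of all genes.

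Cgas was at -0.49, -0.96 and -0.87 in the LAP/Blnk tumours and at 0.86, 1.5, 1.37 and 0.64 in LAP preB-ALL. Dhx58, for which the LAP/Blnk values are above, was at 1.22, 0.27, 0.05 and 0.02 in LAP preB-ALL. Ifi35, an interferon-induced leucine-zipper protein gene, was at -0.79, -0.77 and -0.51 in the LAP/Blnk tumours and at 0.18, 0.44, -0.15 and 0.19 in LAP preB-ALL. No array of one group reached the other in these 3 genes. The falls were 1.87 for Cgas (SE 0.41, limma adjusted p = 0.0358), 1.81 for Dhx58 (SE 0.37, adjusted p = 0.0268) and 0.86 for Ifi35 (SE 0.19, adjusted p = 0.0365). Leaving out any 1 of the LAP/Blnk tumours, or LAP preB-ALL 1, ended all 3 calls, and leaving out LAP preB-ALL 2 left 1 call. Without LAP preB-ALL 3, whose members had a median of -0.24, 5 members passed. Usp18 (-2.57, SE 0.66, adjusted p = 0.0592), Lgals3bp (-2.43, adjusted p = 0.0637) and Zbp1 (-2.0, adjusted p = 0.0827) did not pass. Monocyte and macrophage markers were lower for 17 of 19 (median -0.55) and T-cell markers for 11 of 12 (median -0.78), with 0 called by limma and 2 of each list lower at an unadjusted p under 0.05. The shifts were larger in the precursor B-cell markers, higher for 10 of 10 (median 2.46, 6 at an unadjusted p under 0.05), and in the erythroid markers, lower for 7 of 7 (median -1.65). Limma called 0 of either list, and their part in the members' values was not tested.

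Cgas differed from most members in its order of tumours. Blnk tumour 1, low in 35 members, was at 1.14 in Cgas, and Blnk tumours 2 to 5 were at -0.22, -0.80, -0.45 and -0.17. LAP B-ALL were at 0.17, 0.36, 0.91 and -0.58.

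LAP preB-ALL and Blnk tumours did not separate. Limma called 0 of 37 members, where it called 0.0819% of all genes (0.00585% higher and 0.076% lower), and the smallest adjusted p was 0.207. An unadjusted p under 0.05 was reached by 7 members (18.9%), against 13.2% of all genes, and no member had groups that did not overlap (1.72% of all genes higher and 2.87% lower). Differences were positive for 23 and negative for 14, with a median of 0.08. The largest were Zbp1 (1.30, SE 0.49), Cgas (1.20, SE 0.36) and Ifit2 (-1.13, SE 0.42). Zbp1 was at 0.37, 1.77, -0.45 and 1.93 in the LAP preB-ALL group and at -1.09, -0.33, -0.13, -0.95 and 0.52 in Blnk tumours. LAP preB-ALL 2 and 4 lay above all Blnk tumours and the others among them, so the groups overlapped. Ifit2 was at -0.01, -0.03, -0.24 and -0.37 in the LAP preB-ALL group and at -0.57, 0.71, 1.85, 1.04 and 1.81 in Blnk tumours, with 4 of 5 Blnk tumours above every LAP preB-ALL. Precursor B-cell markers were lower in LAP preB-ALL for 10 of 10 (median -1.99) and erythroid markers higher for 7 of 7 (0.86). Limma called 0 of them, and their part in the members' values was not tested.

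Among these genes LAP B-ALL stood out most clearly by high Pml. LAP B-ALL were at 1.28, 1.46, 1.29 and 1.36 and LAP preB-ALL at -0.17, -0.46, -0.86 and 0.07. Blnk tumours were at -0.67, 0.09, 0.41, -0.41 and 0.48, and the 3 LAP/Blnk tumours were at -0.33, -0.34 and -0.07. The 4 LAP B-ALL (1.35 ± 0.08, SD) lay above all 12 other tumours, including LAP B-ALL 4, whose precursor B-cell markers went against its label. In Samd9l, too, every LAP B-ALL (lowest 0.35) lay above every other tumour, though barely (highest 0.34, in LAP preB-ALL). Samd9l was called in no comparison. Pml rose by 1.37 against Blnk tumours (SE 0.23, limma adjusted p = 0.0143) and by 1.59 against LAP/Blnk tumours (SE 0.26, adjusted p = 0.00621). Against LAP preB-ALL the difference was 1.70 (SE 0.24, adjusted p = 0.125). Without LAP preB-ALL 4 and LAP B-ALL 4 it was 1.84 and passed (adjusted p = 0.00214). The other probe set of Pml gave smaller differences, 0.87 against Blnk tumours (adjusted p = 0.0729) and 1.10 against each of the other groups. In cells, by contrast, both probe sets of Pml were lower with LAP, by -0.41 and -0.52.

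In the comparison of LAP B-ALL with LAP preB-ALL limma called 0 of 37 members and 0% of all genes. An unadjusted p under 0.05 was found for 5 members (13.5%), against 11.0% of all genes, 18 differences were positive and 19 negative, and the median was -0.05. Groups did not overlap for 3 higher members (1.84% of all genes), namely Pml, Ddx58 and Samd9l, and for Mx2, which was lower (3.37%). With LAP preB-ALL 4 and LAP B-ALL 4 left out, a choice made after seeing the data, 3 members passed, which were Pml, Rsad2 and Cmpk2. The share of all genes called in that fit is not given here. The count shows how far the calls depend on these libraries and is no result about the members. Rsad2 was at 3.56, 3.71, 4.55 and -1.17 in LAP B-ALL and at -1.32, 0.01, -0.01 and 3.42 in LAP preB-ALL. The array numbered 4 lay near or among the other group's values in each case, and the difference was 2.14 (SE 1.23, adjusted p = 0.528) with both libraries and 4.38 (adjusted p = 0.00594) without them. Cmpk2, the gene next to Rsad2, which encodes a mitochondrial nucleotide kinase, was at 1.10, 1.14, 1.74 and 0.40 in LAP B-ALL and at -0.02, -0.78, -1.66 and 1.70 in LAP preB-ALL. LAP preB-ALL 4 was again the high one of its group, and the difference was 1.29 (adjusted p = 0.473) with both libraries and 2.15 (adjusted p = 0.0398) without them. Erythroid markers were high in the same 4 arrays in which Rsad2 was above 3, and their part in it was not tested. By group they were higher in LAP B-ALL for 7 of 7 (median 3.04). Monocyte and macrophage markers were higher for 18 of 19 (1.12) and granulocyte markers for 13 of 14 (1.82), with 0 called by limma.

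Against Blnk tumours, Pml was the 1 called member, where limma called 1.45% of all genes (0.48% higher and 0.971% lower). There were 5 members higher and 4 lower at an unadjusted p under 0.05, together 24.3% against 21.2% of all genes, and the median over members was 0.26. Groups did not overlap for Pml and Samd9l, which were higher (3.36% of all genes), and for Mx2, which was lower (5.16%). The call rested on all of LAP B-ALL 1 to 3, since leaving out any 1 of them gave an adjusted p between 0.0506 and 0.0540, while 3 members passed without LAP B-ALL 4 and 2 without Blnk tumour 1. Erythroid markers were higher for 7 of 7 (median 4.39), monocyte and macrophage markers for 18 of 19 (0.76) and granulocyte markers for 12 of 14 (1.45). Precursor B-cell markers were lower for 8 of 10 (-2.53). Limma called 0 of these markers, and their part in the members' values was not tested.

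Against LAP/Blnk tumours, LAP B-ALL were higher in 35 of 37 members, with a median of 0.88 against -0.01 over all genes. Limma called 4, all higher (Pml, Ifi35, Dhx58 and Zbp1), where it called 3.52% of all genes, 1.32% higher and 2.21% lower. Groups did not overlap for 19 members, all higher (51.4%), against 10.9% of all genes. Zbp1 was at 1.73, 1.24, 1.43 and 0.13 in LAP B-ALL and at -0.96, -0.90 and -1.42 in LAP/Blnk tumours, and it rose by 2.23 (SE 0.56, limma adjusted p = 0.0442). Dhx58 rose by 1.49 and Ifi35 by 0.88, each with LAP B-ALL values between -0.32 and 0.48. Rsad2 had the largest difference, 4.44 (SE 1.33), and did not pass (adjusted p = 0.0781), and LAP B-ALL 4 lay far nearer to the LAP/Blnk tumours than to its own group. Without LAP B-ALL 4 the count was 9, and without any 1 of LAP B-ALL 1 to 3 or of the LAP/Blnk tumours it was 1 or 2. Monocyte and macrophage markers had medians of 0.86, 0.82, 1.56 and 0.10 in LAP B-ALL and T-cell markers of 0.90, 0.60, 1.8 and -0.04. LAP B-ALL 4 was the lowest of its group in both lists and also in the members (-0.05, against 0.22, 0.03 and 0.48). Against LAP/Blnk tumours all 19 monocyte and macrophage markers were higher, with a median of 1.73, and 1 of them passed. Erythroid markers were higher for 7 of 7 (median 4.69, 2 called), granulocyte markers for 14 of 14 (median 2.23) and mature B-cell markers for 7 of 8 (median 0.98, 2 called), and precursor B-cell markers were lower for 9 of 10 (median -3.16). Their part in the members' values was not tested.

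**Figure D4:**
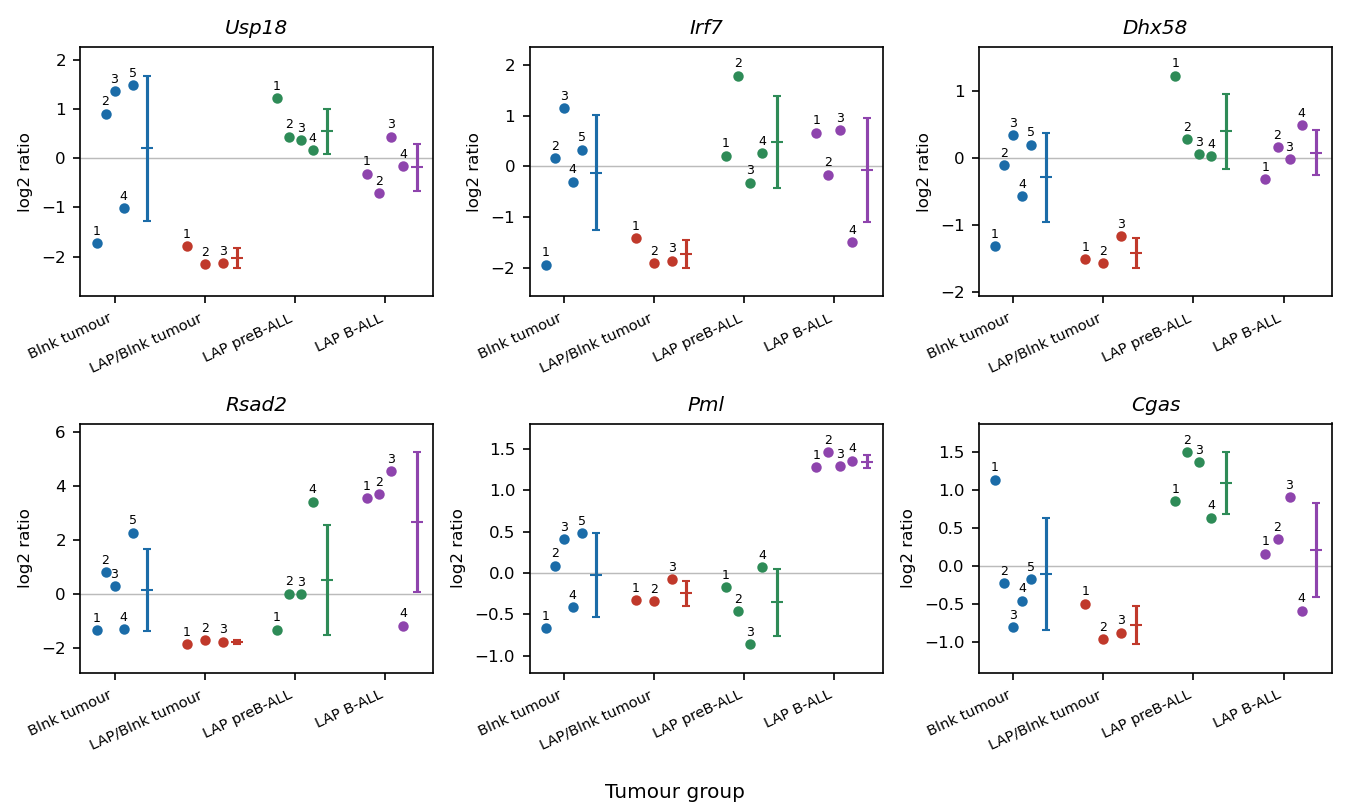
Log2 ratio of 6 members in each tumour (points, numbered by replicate) with the mean and SD of each group beside them (bars). In Usp18, Irf7 and Dhx58 the 3 LAP/Blnk tumours are low together with Blnk tumour 1, in Rsad2 the arrays numbered 4 of the LAP groups are at 3.42 and -1.17, and in Pml the 4 LAP B-ALL lie above all others.

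In the wider pathway, called genes were found where LAP preB-ALL were compared with LAP/Blnk tumours and where LAP B-ALL were compared with Blnk or LAP/Blnk tumours. Limma called no gene of its lists in the other 3 tumour comparisons, where it called between 0% and 0.0819% of all genes. For Trex1, the DNase that limits cGAS activation, the 3 LAP/Blnk tumours were at -0.88, -1.03 and -1.11. LAP preB-ALL had 0.14, 0.97, -0.13 and 1.21, and LAP B-ALL had 1.31, 1.31, 0.91 and 0.16. It lay lower in every LAP/Blnk tumour than in any tumour of the other transgenic groups, by 1.55 against LAP preB-ALL (SE 0.34, limma adjusted p = 0.0336) and by 1.93 against LAP B-ALL (SE 0.34, adjusted p = 0.00767). Between LAP/Blnk and Blnk tumours Trex1 was not called, and 0 of 10 negative regulators were lower there at an unadjusted p under 0.05 (limma). Trim25, a ligase that activates RIG-I, fell by 1.03 against LAP preB-ALL (SE 0.23, adjusted p = 0.0386). Tyk2, the receptor kinase gene, was at 1.11, 0.95, 0.61 and 0.82 in LAP B-ALL and rose by 1.03 against Blnk tumours (SE 0.21, adjusted p = 0.0313) and by 0.99 against LAP/Blnk tumours. In the latter comparison Ticam1, an adaptor of Toll-like receptors, rose by 1.14 and Rela and Rnaseh2c fell by 0.82 and 1.16. Ifnar1 and Ifnb1 were called in no tumour comparison.

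The members called in LAP cells and those lowest in LAP/Blnk tumours are set side by side here, with no test of their overlap. The 11 that fell in cells had a median of -0.38 there and of -0.49 in LAP/Blnk minus Blnk tumours. The 25 not called in cells had medians of -0.03 and -1.06. Of the 10 members lowest in LAP/Blnk minus Blnk tumours, Ifi27l2a and Ifit3 were called in cells, whereas Usp18, Cxcl10, Rsad2, Rtp4, Ifit1, Irf7, Lgals3bp and Cmpk2 lay between -0.06 and 0.07 there. The difference between the tumour and cell effects of LAP was tested as an interaction. The fit used 1 spread per gene for cells and tumours alike. The members' median SD was 0.092 over the 8 cell-line arrays and 0.771 over the 16 tumours. SEs and p-values of the interaction can therefore be too small for its tumour part. Limma called 0 of 37 members, where 1.05% of all genes were called, 32 were negative, 14 were lower at an unadjusted p under 0.05 (37.8%), against 7.07% of all genes, and the median was -0.70. The smallest adjusted p was 0.0584, for Eif2ak2 (-0.86, SE 0.20, where its tumour difference alone had an SE of 0.30). Usp18 was at -2.25 (SE 0.81, adjusted p = 0.234), Cxcl10 at -2.0 and Rsad2 at -1.98. Without Blnk tumour 1, 8 members passed, all lower, Usp18 among them (-2.74, adjusted p = 0.0324), and without Blnk tumour 5, 2 passed. The 1.05% above belongs to the fit with all arrays, and the share of all genes called without these tumours is not given here. These counts are therefore no result about the members.

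Some members lie side by side in the genome. By the RefSeq order of protein-coding genes (GRCm38.p6) there is no other gene between Ifit2 and Ifit3, Oas2 and Oas3, Oasl1 and Oasl2, Rsad2 and Cmpk2, Parp9 and Dtx3l, or Dtx3l and Parp14. Neighbours were not always alike. Parp9 and Dtx3l had similar differences in cells (-0.32 and -0.33) and in LAP/Blnk minus Blnk tumours (-0.47 and -0.49), whereas Oas2 and Oas3 differed in LAP/Blnk minus Blnk tumours (-0.87 and -0.02), as did Ifit2 and Ifit3 (-0.40 and -1.58). The IFIT genes are on chromosome 19, whose 569 genes had a median difference of 0.23 between LAP/Blnk and Blnk tumours, so Ifit1 and Ifit3 lay lower within a chromosome that lay higher. The response element was in 3 of 7 promoters of members that fell in cells (42.9%) and in 7 of 19 of those not called (36.8%). Only 7 of the 11 members that fell had a window, and a relation of the element to the response of cells was not tested.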

How the data were processed

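RNA (100 ng) of 8 cell-line arrays and 16 tumours was hybridised to Affymetrix arrays, per the labels. The deposited values are log ratios, used as log2, of 45141 probe sets. They are centred in each set of arrays, as tested on the values. MAS5 is named in the submitters' processing notes without a version, and no source used here gives the authors' scaling, filters or log base. Signal over background is therefore unknown, and precision is limited by the number of arrays.

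Symbols came from the platform annotation of 2016 (28898 probe sets with 1 symbol, 551 with several, 15692 with none), and 28689 matched RefSeq by gene ID. Group means were fitted with limma 3.58.1 in R 4.3.3 (lmFit and eBayes), cells and tumours apart, with 2-sided p-values adjusted by Benjamini-Hochberg over 17097 genes and a threshold of 0.05. The fit was tested on simulated data. The interaction used the 4 groups with a Blnk knock-out. Values in every array were given for the members with the largest SD of each role over tumours or cells and, per comparison, for up to 6 called members or the 3 with the largest difference. The members and lists were chosen with earlier results of these data known. Alternatives covered the probe set, filters, variance model, weights, normalisation, replicate block, the arrays fitted and left-out arrays.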

Additional observations from a re-analysis of the deposited data

Results flagged for a closer look

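In groups of 4 or 5 arrays, 1 array stood far from the others of its group in 9 of 125 cases tested, and chance marks about 5% of such groups. Among control cells these were Oasl2 in BKO408 2 (-0.15, the others 0.08 to 0.12), Xaf1 in BKO408 1 (0.14, the others 0.31 to 0.33) and Dhx58 in BKO408 4 (-0.01, the others 0.09 to 0.10). Among LAP cells it was Oasl2 in BKO408 LAP 4 (0.03, the others -0.04 to -0.03). These gaps are small beside the differences seen in tumours.

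Stat2 was low in Blnk tumour 1 (-0.96, the others -0.10 to 0.18) and high in LAP preB-ALL 2 (1.17, the others -0.14 to 0.01). Ifit1 was high in LAP preB-ALL 4 (1.27, the others -0.06 to 0.03). In LAP B-ALL 4, Trim30a was high (0.99, the others -0.37 to -0.18) and Psmb9 low (-0.33, the others 0.36 to 0.48). LAP preB-ALL 4 and LAP B-ALL 4 are the libraries whose precursor B-cell markers went against their labels. LAP preB-ALL 2 was also low in these markers (-2.13) and was high in the mature B-cell markers (2.31).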

How the results depend on the processing

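No result reversed, and of the recomputed counts and medians 244 stayed close to the reported ones and 43 moved. LAP/Blnk against Blnk tumours gave 0 calls under every alternative, with medians from -0.98 to -0.55, and LAP preB-ALL against Blnk tumours also gave 0. In cells the median was -0.15 in the more variable genes, and 0 members passed with all 24 arrays fitted together. For LAP/Blnk against LAP preB-ALL (3 calls), quantile normalisation gave 5, only the groups compared 1, genes outside chromosome 19 gave 1, and leaving out 1 array 0 to 5. For LAP B-ALL against LAP preB-ALL (0 calls), array weights gave 1, leaving out 1 array 0 to 1, and leaving out both LAP preB-ALL 4 and LAP B-ALL 4 gave 3. For LAP B-ALL against Blnk tumours (1 call), the probe set chosen by name gave 0, array weights 8, leaving out 1 array 0 to 3, and leaving out both libraries 3. For LAP B-ALL against LAP/Blnk tumours (4 calls), the more variable genes gave 10, array weights 21, only the groups compared 8, leaving out 1 array 1 to 9, leaving out both libraries 9 and genes outside chromosome 19 gave 2, while the median was 0.70 with the probe set chosen by name. For the interaction (0 calls), array weights gave 9 and leaving out 1 array 0 to 8. Beyond the smaller sets of genes or arrays, the cause was not tested. Alternatives leaving out both libraries, genes of chromosome 19, or single tumours for the overlap of groups were chosen after seeing the data. Of the values recomputed for named members, 432 kept their side of the threshold, 57 lost it and 7 gained it.

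Arrays share replicate numbers between groups, but nothing states a pairing. Correlations of same-numbered deviations in cells ran from -0.03 to 0.26, and 3 of 8 arrays correlated best with their own number. In the tumour comparisons they ran from -0.64 to 0.38, with 5 of 8 arrays best with their own number for LAP preB-ALL against Blnk tumours and 0 to 2 in the others. With the replicate number as a block, members called were 1 for LAP/Blnk against LAP preB-ALL, 2 for LAP B-ALL against LAP/Blnk tumours and 1 for the interaction, and the remaining counts stayed as reported.

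Ratios without intensities do not show whether a member was above background. Groups of 3 to 5 tumours, with a wide spread between Blnk tumours, limit what the tumour comparisons can detect. Of 18 further probe sets of members, 17 had the sign of the chosen one for LAP/Blnk against Blnk tumours and 15 in cells.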
